A study of Mus musculus with 12 samples.

Results

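The genes examined here encode enzymes and regulators of sterol and fatty acid synthesis: 21 genes of the sterol pathway and 7 of fatty acid synthesis, 28 in all, taken as a list by name. The list was chosen with earlier results of these data known. A probe of the array named 24 of them (18 sterol and 6 fatty acid genes, with 31 probes between them), out of 10183 named genes on the array. Hmgcs1, Sqle, Fdft1 and Acaca had no named probe and were not analysed here. All 24 measured genes passed the filter on dim probes, which asked for a signal clear of the background on 3 or more of 12 arrays, and were tested among 17259 features. For Insig1, 1 of its 3 probes was above background on no array.

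Expression was measured on Illumina mouse BeadChips, which read RNA as the brightness of oligonucleotide-coated beads, in MEFs, fibroblasts from mouse embryos that had been immortalized in culture and were kept in serum-containing medium. The 4 groups were Rictor-/- cells given mouse interferon-alpha (IFN) at 2500 U/ml for 24 hours (arrays 4, 8 and 12), Rictor-/- cells left untreated (arrays 3, 7 and 11), Rictor+/+ cells given the same IFN treatment (arrays 2, 6 and 10) and Rictor+/+ cells left untreated (arrays 1, 5 and 9). Rictor encodes a subunit of mTOR complex 2, a kinase complex upstream of Akt. As far as the labels tell, each genotype was 1 line, so line and genotype cannot be told apart, and a label naming Rictor siRNAs for every sample is at odds with the knockout genotype, which was followed. Separate cultures are not stated, so p-values measure only the spread between these arrays.

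Cholesterol is built from acetyl-CoA through mevalonate, isoprenoid diphosphates and lanosterol, whose ring is then demethylated, reduced and desaturated. The fatty acid branch starts from the same acetyl-CoA, and its products are elongated and desaturated. Most of these genes are targets of the SREBP transcription factors, which Scap and the Insig proteins hold in the endoplasmic reticulum when sterols are plentiful. In mouse macrophages, interferon and virus infection are known to lower the output of the sterol pathway, and mTOR signalling is known to raise SREBP activity.

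Of the 11 fibroblast markers, 10 were above background on all arrays, and all 11 on at least 1. The total signal was 39160370 to 62338146 on 11 arrays and 21292305 on array 12 (Rictor-/- with IFN), where 31.5% of probes cleared the background, against 34.1% to 46.9% elsewhere. Arrays 1 to 6 had a background of 210.8 to 240.5 intensity units and arrays 7 to 12 one of 107.6 to 127.9. The labels name no batch. All 4 groups occur in both sets of 6, with 4 Rictor+/+ arrays in the first and 4 Rictor-/- arrays in the second, so values within each set are given beside the calls of these genes. Each Rictor-/- group had only 1 array in the first set, and each Rictor+/+ group only 1 in the second. Calls could therefore hardly be reached within a set, and only the size and direction of a change are read there.

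The promoters of the 4 genes that the tests below turn on are shown because SREBPs bind DNA together with the partner factors NF-Y and Sp1. They are RefSeq sequences of the build GRCm38.p6, written in the direction of transcription from 250 bases before the annotated start to 50 after it. Capitals mark matches to CCAAT, the core of NF-Y sites, and to GGGCGG, a core of Sp1 sites, on either strand. Nsdhl lies on the plus strand of chromosome X, Tm7sf2 on the minus strand of chromosome 19, Sc5d on the minus strand of chromosome 9 and Elovl6 on the plus strand of chromosome 3.
Nsdhl, chrX:72918271-72918570: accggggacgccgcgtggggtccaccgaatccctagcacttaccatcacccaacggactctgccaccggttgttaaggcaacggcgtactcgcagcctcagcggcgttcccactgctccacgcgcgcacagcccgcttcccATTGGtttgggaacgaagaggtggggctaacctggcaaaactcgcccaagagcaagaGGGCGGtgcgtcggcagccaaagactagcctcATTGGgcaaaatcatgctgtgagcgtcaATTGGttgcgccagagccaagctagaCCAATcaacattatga
Tm7sf2, chr19:6067801-6068100: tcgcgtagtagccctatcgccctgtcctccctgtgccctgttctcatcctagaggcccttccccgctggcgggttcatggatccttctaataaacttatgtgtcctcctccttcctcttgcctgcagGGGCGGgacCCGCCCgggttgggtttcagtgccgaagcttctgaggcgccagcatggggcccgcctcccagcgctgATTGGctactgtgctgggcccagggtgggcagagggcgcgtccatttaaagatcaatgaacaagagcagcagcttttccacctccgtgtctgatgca
Sc5d, chr9:42264251-42264550: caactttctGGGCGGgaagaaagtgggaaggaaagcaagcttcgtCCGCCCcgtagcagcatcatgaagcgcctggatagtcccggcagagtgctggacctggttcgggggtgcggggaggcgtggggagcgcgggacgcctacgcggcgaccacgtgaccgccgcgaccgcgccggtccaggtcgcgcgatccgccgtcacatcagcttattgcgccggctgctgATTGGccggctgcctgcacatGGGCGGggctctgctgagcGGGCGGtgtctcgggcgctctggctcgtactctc
Elovl6, chr3:129532136-129532435: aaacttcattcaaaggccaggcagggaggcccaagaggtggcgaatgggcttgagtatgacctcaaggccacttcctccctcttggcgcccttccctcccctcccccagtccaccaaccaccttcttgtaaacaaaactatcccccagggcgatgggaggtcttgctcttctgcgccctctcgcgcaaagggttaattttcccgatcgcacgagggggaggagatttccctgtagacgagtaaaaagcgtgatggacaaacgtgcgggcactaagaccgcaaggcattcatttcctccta
The Nsdhl promoter held 4 CCAAT matches and 1 GGGCGG match, that of Tm7sf2 1 and 2, and that of Sc5d 1 and 4. The Elovl6 window held neither motif. RefSeq gave a promoter for 20 of the 24 genes, all but Fdps, Scd1, Scd2 and Stard4. CCAAT occurred in a promoter of 19 of the 20 genes (95%), against 41.1% of all 27025 genes and 43.3% of the 6716 named genes tested. GGGCGG occurred in 17 of 20 (85%), against 38.2% and 70.5%. The sterol regulatory element searched as TCACNCCAC was in 0 of 20, against 1.44% of all genes and 1.27% of the named genes tested. The interferon-stimulated element was searched as 2 copies of TTTC with 2 bases of any kind between them. It was in a promoter of Ebp alone (1 of 20, 5%), against 3.99% and 4.06%. The E-box CACGTG was in 4 of 20 (20%), against 8.09% and 11.8%. These letter matches are descriptions of the windows and were not set against binding.

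The first question was what 24 hours of IFN did to these genes in each line. In Rictor-/- cells none of the 24 genes was called, and in Rictor+/+ cells only Tm7sf2, which encodes a sterol reductase acting after the Cyp51 step, was called, as lower. The log2 change was negative for 13 of 18 sterol genes and 6 of 6 fatty acid genes in Rictor-/- cells, and for 17 of 18 and 6 of 6 in Rictor+/+ cells. A negative change was found for 54.8% of all features in Rictor-/- and 56.2% in Rictor+/+ cells. The median log2 change of the sterol genes was -0.24 in Rictor-/- and -0.41 in Rictor+/+ cells, that of the fatty acid genes -0.29 and -0.50, and that of all features -0.04 in both lines. A call required a limma adjusted p under 0.05 over all 17259 features, and every ± on a log2 change is its SE. Features called lower made up 0.0406% in Rictor-/- cells and 0.313% in Rictor+/+ cells, and features called higher 0.800% and 2.13% (0.840% and 2.44% in either direction), so decreases of any gene were rarely called. At an unadjusted p under 0.05 stood 3 sterol genes and 1 fatty acid gene in Rictor-/- cells, and 5 and 2 in Rictor+/+ cells. In RNA from whole cultures, a change in every cell and a change in the share of cells expressing a gene cannot be told apart.

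**Figure D1:**
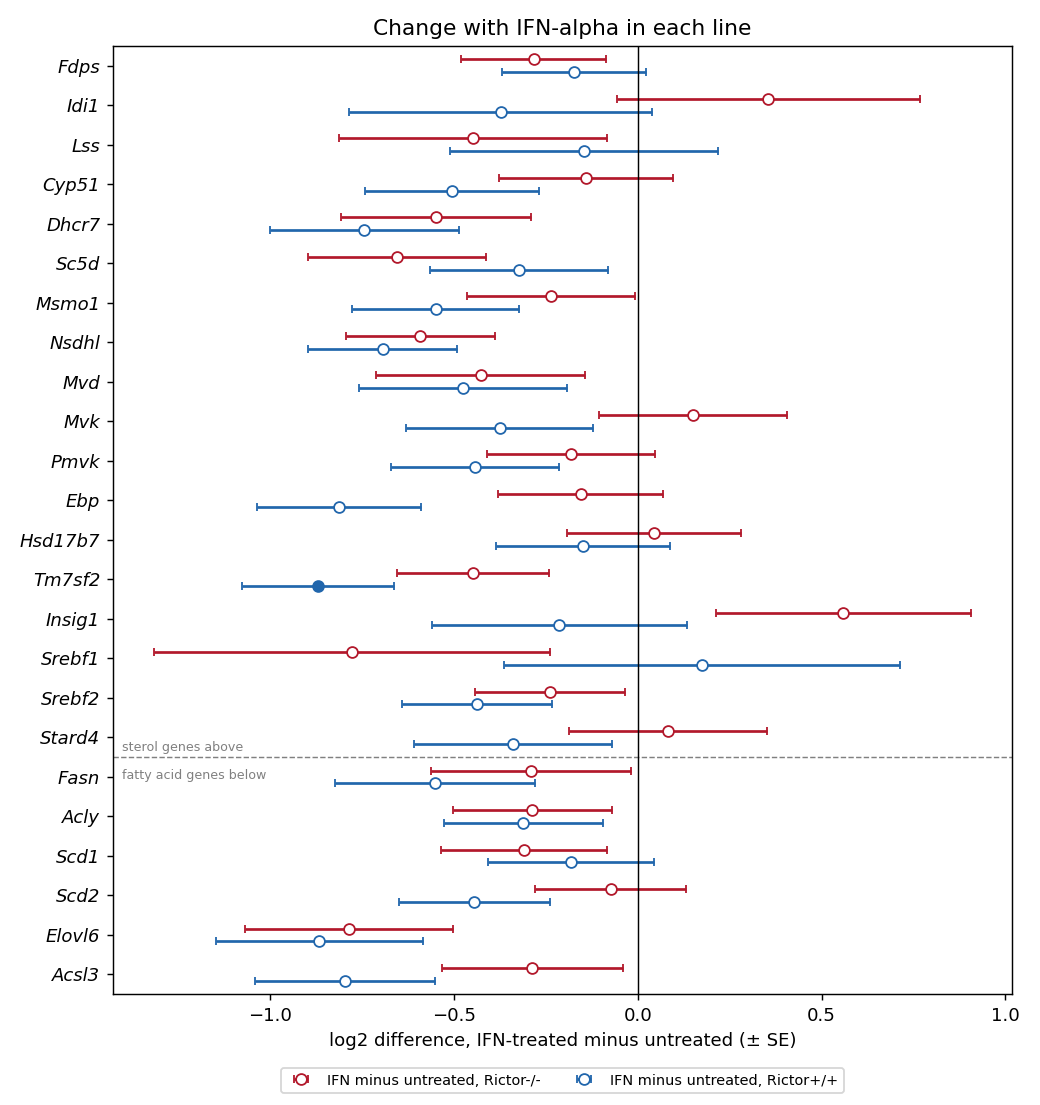
Log2 difference between IFN-treated and untreated cells for each of the 24 genes (points, bars ± SE from limma, 3 arrays per group), in Rictor-/- (red) and Rictor+/+ (blue) cells, with sterol genes above the dashed line. Filled points passed an adjusted p under 0.05, which only Tm7sf2 in Rictor+/+ cells did, and most points of both lines lie left of 0.

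Tm7sf2 had log2 intensities of 8.92, 9.0 and 9.09 on the IFN-treated Rictor-/- arrays, against 9.77, 9.35 and 9.23 on the untreated ones. In Rictor+/+ cells it had 8.55, 8.66 and 8.88 with IFN, against 9.34, 9.73 and 9.62 without. In each line all IFN-treated arrays lay below all untreated arrays. The log2 change was -0.87 ± 0.21 in Rictor+/+ cells (1.83-fold lower, limma adjusted p = 0.0447) and -0.45 ± 0.21 in Rictor-/- cells (adjusted p = 0.766). Within the arrays of high background the change in Rictor+/+ cells was -0.93, and within those of low background -0.75. The call was lost with median scaling (-0.81, adjusted p = 0.712), with cyclic loess (-0.82, 0.0588) and with the background set as a block (-0.87, 0.0538). Runs of 4 array numbers, each of which holds 1 array of every group, also ended it as a block (-0.87, 0.0762). Leaving out any one of arrays 2 and 4 to 11 ended it too. Over the 12 fits that left out 1 array, the changes were -0.98 to -0.79 and the adjusted p-values up to 0.218. The Rictor-/- arrays 4, 7, 8 and 11 do not enter this change, which stayed at -0.87 without any one of them. Leaving them out moved only the shared estimate of the spread and the adjustment (adjusted p = 0.0569 to 0.0777).

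Averaged over both lines, which uses all 12 arrays, IFN lowered Nsdhl and Tm7sf2. Nsdhl encodes a decarboxylating sterol dehydrogenase that acts in the demethylation of the ring. Its log2 intensity was 11.65, 11.75 and 11.71 in IFN-treated Rictor-/- cells, against 12.34, 12.42 and 12.11 in untreated ones. In Rictor+/+ cells it was 10.90, 11.20 and 11.22 with IFN, against 11.52, 12.10 and 11.78 without. Neither pair of groups overlapped. The averaged log2 change was -0.64 ± 0.14 for Nsdhl (1.56-fold lower, limma adjusted p = 0.0317) and -0.66 ± 0.15 for Tm7sf2 (1.58-fold lower, adjusted p = 0.0297). In this average 2 of the 18 sterol genes and 0 of the 6 fatty acid genes were called, both lower, where 0.394% of all features were called lower and 2.33% in either direction. The change was below 0 for 17 of 18 sterol and 6 of 6 fatty acid genes, and for 56.6% of all features. The changes of Nsdhl and Tm7sf2 were -0.73 and -0.89 within the arrays of high background, and -0.55 and -0.49 within those of low background. Median scaling ended both calls (adjusted p = 0.201 and 0.134), cyclic loess that of Nsdhl (0.0556) and the run of 4 arrays as a block that of Tm7sf2 (0.0556). The other 2 Nsdhl probes, tested with every probe as its own feature, had averaged changes of -0.42 ± 0.16 (adjusted p = 0.30) and -0.46 ± 0.15 (0.189) and were not called. Leaving out array 12 gave -0.64 with an adjusted p of 0.0537 for Nsdhl and -0.68 with 0.0402 for Tm7sf2. Over all 12 fits that left out 1 array, the Nsdhl call held without array 1 or 11 and the Tm7sf2 call without array 1, 10, 11 or 12, with changes of -0.71 to -0.57 and -0.71 to -0.58.

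Elovl6, which lengthens the chain of the first product of fatty acid synthase, came closest among the fatty acid genes. It had log2 intensities of 11.85, 12.22 and 11.39 in IFN-treated Rictor-/- cells, against 12.66, 12.61 and 12.54 in untreated ones. In Rictor+/+ cells the values were 10.71, 10.92 and 10.42 with IFN, against 10.96, 11.95 and 11.73 without. In both lines the IFN-treated arrays lay below the untreated ones. Its averaged log2 change of -0.83 ± 0.20 had a limma adjusted p of 0.0522, just past the threshold. With every probe tested as its own feature, over 20856 probes, the same value had an adjusted p of 0.0478. In that fit a second, dimmer Elovl6 probe had an averaged change of -0.29 ± 0.42 (adjusted p = 0.851). Its change was 0.28 ± 0.60 in Rictor-/- and -0.87 ± 0.60 in Rictor+/+ cells, so in Rictor-/- cells the probes differed in sign. That sign rested on array 12, the array of low total signal. The dimmer probe had 7.07, 8.21 and 9.41 (array 12) in IFN-treated Rictor-/- cells, against 7.18, 8.17 and 8.5 in untreated ones. In every group its values also rose with the array number.

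**Figure D2:**
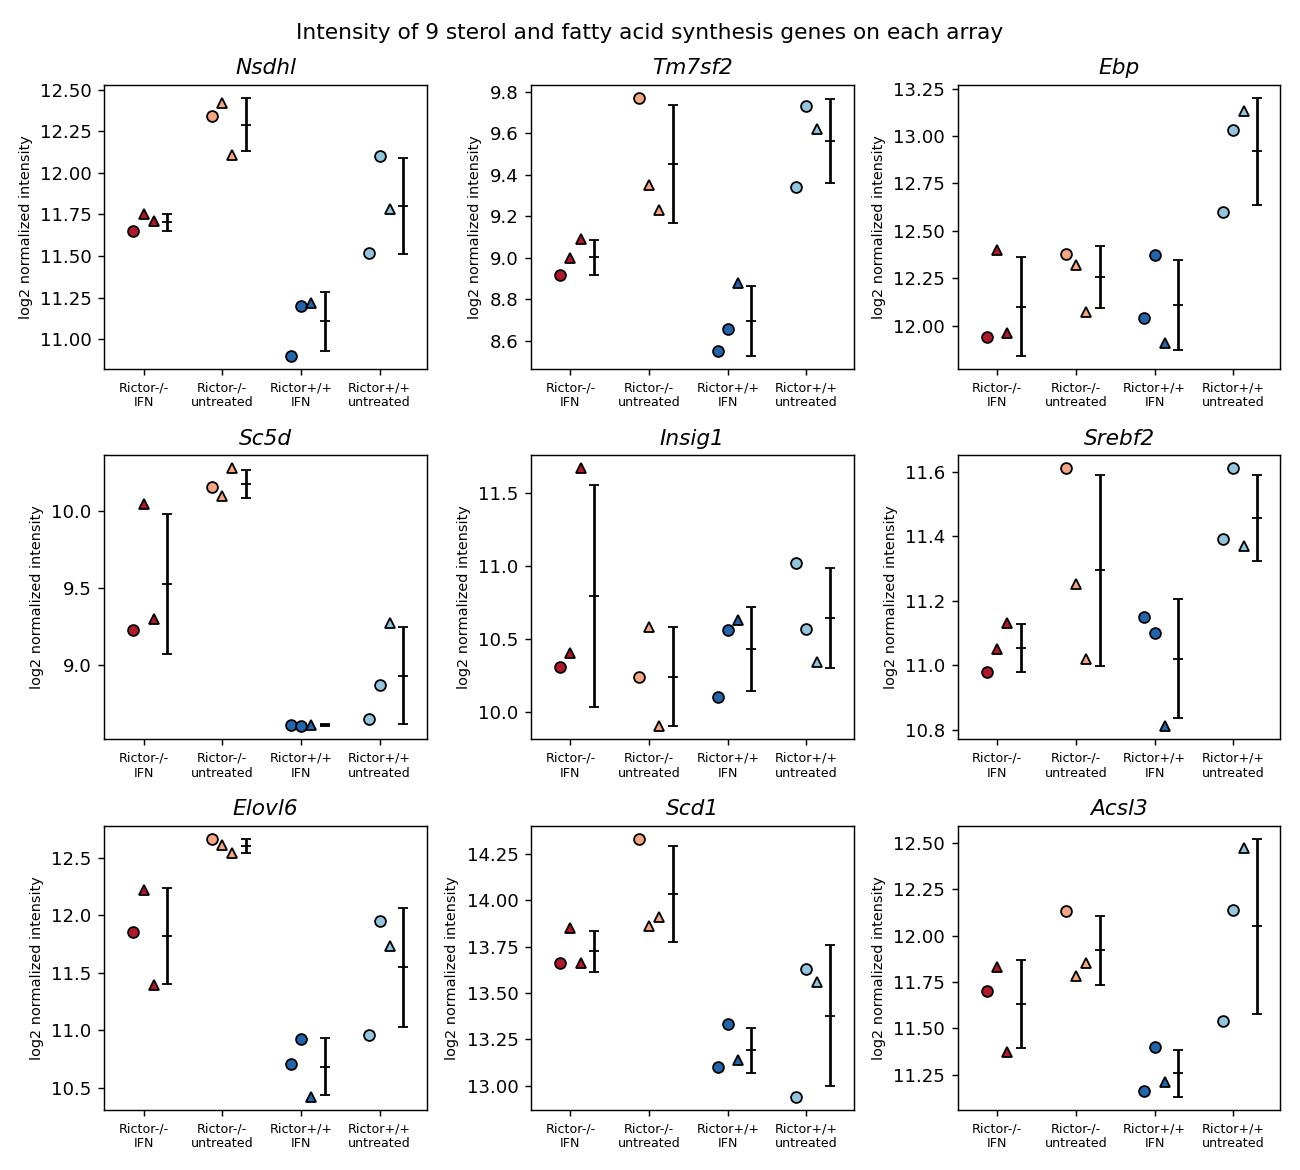
Log2 normalized intensity of 9 of the genes on each array, in IFN-treated Rictor-/-, untreated Rictor-/-, IFN-treated Rictor+/+ and untreated Rictor+/+ cells. Circles are arrays of high background, triangles arrays of low background, and each horizontal dash with its bar is the mean ± SD of 3 arrays. For Nsdhl, Tm7sf2, Sc5d and Elovl6 the IFN-treated arrays of each line lie below the untreated arrays of that line.

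Of the enzymes that lead to lanosterol, none was called in either line or in the average. Mvk, Pmvk and Mvd, which phosphorylate mevalonate and decarboxylate it, had averaged log2 changes of -0.11 ± 0.18, -0.31 ± 0.16 and -0.45 ± 0.20. Fdps, which joins isoprenoid units into farnesyl diphosphate, had -0.23 ± 0.14, and Lss, which closes the ring to lanosterol, had -0.30 ± 0.26. Idi1, the isomerase of the isoprenoid units, had 10.06, 11.09 and 11.29 log2 intensity in IFN-treated Rictor-/- cells, against 10.08, 10.44 and 10.86 in untreated ones, and 9.01, 10.09 and 10.42 in IFN-treated Rictor+/+ cells, against 9.96, 9.91 and 10.77 in untreated ones. Its groups overlapped in both lines, and its averaged change was -0.01 ± 0.29.

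After lanosterol, the averaged changes were negative for all 8 measured enzymes of the list. They were -0.32 ± 0.17 for Cyp51 (the lanosterol demethylase), -0.39 ± 0.16 for Msmo1 (the methylsterol oxidase), -0.05 ± 0.17 for Hsd17b7 (a keto-reductase), -0.48 ± 0.16 for Ebp (an isomerase), -0.49 ± 0.17 for Sc5d (a desaturase) and -0.65 ± 0.18 for Dhcr7 (the last reductase), beside Nsdhl and Tm7sf2 above. Dhcr7 had a limma adjusted p of 0.118 and the other 5 had higher ones. Lbr, a further gene of sterol synthesis outside these 24 genes, had an averaged change of -0.17 ± 0.17 and was not called. The averaged changes of the listed enzymes before lanosterol were also negative, as were those of 56.6% of all features. IFN-treated and untreated arrays did not overlap, with IFN lower, for 6 sterol genes in Rictor-/- cells (Fdps, Dhcr7, Sc5d, Nsdhl, Tm7sf2 and Srebf1) and 2 fatty acid genes (Scd1 and Elovl6). In Rictor+/+ cells this held for 7 sterol genes (Dhcr7, Sc5d, Nsdhl, Pmvk, Ebp, Tm7sf2 and Srebf2) and 4 fatty acid genes (Fasn, Scd2, Elovl6 and Acsl3). Among all features such lower groups made up 7.51% in Rictor-/- and 7.67% in Rictor+/+ cells, and none of the 24 genes had separate groups with IFN higher, where 5.04% and 7.06% of all features did.

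At the probes that stood for them, the regulators gave no call. Srebf2, which encodes the SREBP that mainly drives sterol genes, had 10.98, 11.05 and 11.13 log2 intensity in IFN-treated Rictor-/- cells, against 11.61, 11.25 and 11.02 in untreated ones, and 11.15, 11.10 and 10.81 in IFN-treated Rictor+/+ cells, against 11.39, 11.61 and 11.37 in untreated ones. The groups were separate in Rictor+/+ cells, with a log2 change of -0.44 ± 0.20 (limma adjusted p = 0.546), and overlapped in Rictor-/- cells (-0.24 ± 0.20). A second, dimmer Srebf2 probe had -0.83 ± 0.20 in Rictor+/+ cells, which was called with every probe tested (adjusted p = 0.039), and -0.17 ± 0.20 in Rictor-/- cells. Insig1, whose product retains SREBPs, had 10.31, 10.40 and 11.67 in IFN-treated Rictor-/- cells, against 10.24, 10.58 and 9.90 in untreated ones, and 10.10, 10.56 and 10.63 in IFN-treated Rictor+/+ cells, against 11.02, 10.57 and 10.34 in untreated ones. The value of 11.67 was that of array 12, the array of low total signal, and the groups overlapped in both lines. Its averaged change was 0.17 ± 0.24 at this probe and -0.20 ± 0.13 at a second one, so the probes differed in sign. At the second Insig1 probe the Rictor+/+ groups were separate, with means of 9.46 with IFN and 9.85 untreated. The Rictor-/- groups overlapped there, with a mean of 9.43 in each. Untreated, the lines were also separate at that probe, with Rictor-/- lower. Srebf1, which encodes the SREBP that mainly drives fatty acid genes, was dim and above background on 10 of 12 arrays. Its log2 intensity was 6.96, 6.67 and 5.32 in IFN-treated Rictor-/- cells, against 7.01, 7.0 and 7.27 in untreated ones, and 8.02, 7.59 and 6.22 in IFN-treated Rictor+/+ cells, against 6.09, 7.35 and 7.87 in untreated ones, with changes of -0.78 ± 0.54 and 0.17 ± 0.54. Stard4, a sterol carrier protein, had an averaged change of -0.13 ± 0.19.

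Among the fatty acid genes, Fasn (the synthase) had 6.98, 6.56 and 7.78 log2 intensity in IFN-treated Rictor-/- cells, against 7.56, 7.41 and 7.22 in untreated ones, and 6.78, 6.76 and 6.86 in IFN-treated Rictor+/+ cells, against 7.49, 7.10 and 7.46 in untreated ones. The groups overlapped in Rictor-/- cells and were separate in Rictor+/+ cells (log2 change -0.55 ± 0.27, limma adjusted p = 0.595). Scd1, a desaturase that makes monounsaturated fatty acids, had 13.66, 13.85 and 13.66 in IFN-treated Rictor-/- cells, against 14.33, 13.86 and 13.91 in untreated ones, and 13.10, 13.33 and 13.14 in IFN-treated Rictor+/+ cells, against 12.94, 13.63 and 13.56 in untreated ones. Scd2, a related desaturase, had 12.13, 12.05 and 12.42 in IFN-treated Rictor-/- cells, against 12.40, 12.35 and 12.07 in untreated ones, and 11.60, 11.57 and 11.77 in IFN-treated Rictor+/+ cells, against 11.79, 12.17 and 12.31 in untreated ones. The averaged changes of Scd1 and Scd2 were -0.25 ± 0.16 and -0.26 ± 0.15, neither called. Acly, which makes cytosolic acetyl-CoA from citrate, had -0.30 ± 0.15. Acsl3, which activates long-chain fatty acids, had -0.29 ± 0.25 in Rictor-/- and -0.80 ± 0.25 in Rictor+/+ cells (adjusted p = 0.175).

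Array 1, an untreated Rictor+/+ array, was the lowest of its group for 12 of 18 sterol genes and 5 of 6 fatty acid genes, with median deviations from the group mean of -0.28 and -0.40 on the log2 scale, against -0.02 for all features. Leaving it out moved the median IFN change in Rictor+/+ cells to -0.54 for sterol genes and called Elovl6 and Acsl3 lower beside Tm7sf2. In the averaged comparison it then called 3 sterol genes (Dhcr7, Nsdhl and Tm7sf2) and 2 fatty acid genes (Elovl6 and Acsl3) lower. Leaving out array 12 moved the median of the sterol genes in Rictor-/- cells to -0.19 and that of the fatty acid genes to -0.23, and leaving out array 8 moved them to -0.36 and -0.36, with 0 called each time. With median scaling the 2 medians were -0.54 and -0.55, where the median of all features was -0.27.

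Whether the response depended on Rictor was tested as the difference of the IFN changes, Rictor-/- minus Rictor+/+. No member was called, at an unadjusted p under 0.05 there was also none, and 0.382% of all features were called. The difference was above 0 for 14 of 18 sterol genes and 5 of 6 fatty acid genes, while 50.3% of all features lay below 0. The medians were 0.23 and 0.17. For Ebp the difference was 0.66 ± 0.32 (95% interval -0.03 to 1.34, limma adjusted p = 0.945), for Insig1 0.77 ± 0.49 (-0.29 to 1.83), for Tm7sf2 0.42 ± 0.29 (-0.21 to 1.05) and for Elovl6 0.08 ± 0.40 (-0.78 to 0.94). Each of these intervals includes 0 and reaches 0.94 or more. The sign of the medians depended on the scaling: with median scaling they were -0.09 for sterol genes and -0.14 for fatty acid genes, where the median of all features moved to -0.27.

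The lines were then compared directly. Sc5d and Elovl6 were called, as higher in Rictor-/- than in Rictor+/+ cells, both without and with IFN, and the other 22 genes were not called in either state. Sc5d, the desaturase that introduces a double bond into the sterol ring late in the pathway, had log2 intensities of 9.23, 10.05 and 9.30 in IFN-treated Rictor-/- cells and 10.16, 10.10 and 10.28 in untreated ones. In Rictor+/+ cells it had 8.61, 8.60 and 8.61 with IFN and 8.65, 8.87 and 9.27 without. The lines did not overlap in either state, although the lowest IFN-treated Rictor-/- array lay just under the highest untreated Rictor+/+ array. The log2 difference was 1.25 ± 0.24 untreated (2.38-fold higher, limma adjusted p = 0.00364) and 0.92 ± 0.24 with IFN (1.89-fold higher, adjusted p = 0.0195). Without IFN it was 1.40 within the arrays of high and 0.92 within those of low background, and with IFN 0.63 and 1.06. The untreated call held in all 12 fits that left out 1 array (1.11 to 1.42). That with IFN was lost without array 2 (0.92, adjusted p = 0.0588), array 6 (0.92, 0.0581) or array 8 (0.66, 0.0829), and with median scaling (0.55, 0.492).

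For Elovl6, with the array values given above, the lines did not overlap in either state. The log2 difference was 1.06 ± 0.28 untreated (2.08-fold higher, limma adjusted p = 0.0246) and 1.14 ± 0.28 with IFN (2.20-fold higher, adjusted p = 0.0143). Untreated it was 1.21 within the arrays of high and 0.84 within those of low background, and with IFN 1.04 and 1.38. The untreated call was lost without array 1 (0.76, adjusted p = 0.093), 3 (1.03, 0.0714), 7 (1.05, 0.0744) or 11 (1.09, 0.0626), and the call with IFN without array 8 (0.94, 0.0647) or 10 (1.01, 0.0536). Median scaling ended both (1.20, adjusted p = 0.0612, and 0.90, 0.171). The dimmer Elovl6 probe, above background on 11 of 12 arrays, had -0.09 ± 0.60 untreated and 1.06 ± 0.60 with IFN and was not called.

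Features called higher in Rictor-/- cells made up 6.54% of all features untreated and 7.35% with IFN (6.89% and 9.01% were called lower), against 1 of 18 sterol genes and 1 of 6 fatty acid genes in each state, so the counts were near the background. With IFN the log2 difference was above 0 for 15 of 18 sterol genes and 5 of 6 fatty acid genes, with medians of 0.39 and 0.45, against 0.04 for all features, of which 47.0% lay below 0. Untreated it was above 0 for 10 of 18 and 4 of 6, with medians of 0.06 and 0.12, against 0.05 for all features, of which 46.0% lay below 0. Rictor-/- and Rictor+/+ arrays did not overlap, with Rictor-/- higher, for 5 sterol genes untreated (Fdps, Lss, Sc5d, Nsdhl and Hsd17b7) and 6 with IFN (Sc5d, Msmo1, Nsdhl, Mvd, Mvk and Tm7sf2), where 18.1% and 15.9% of all features did. Among the fatty acid genes Scd1 and Elovl6 were so separated untreated, and Scd1, Scd2 and Elovl6 with IFN. Ebp untreated and Acly with IFN were separate with Rictor-/- lower, where 15.4% and 15.2% of all features were. Taking both states together, only Scd1 had all 6 Rictor-/- arrays above all 6 Rictor+/+ arrays, which 6.81% of features did, with log2 differences of 0.66 ± 0.23 untreated (limma adjusted p = 0.0749) and 0.53 ± 0.23 with IFN (0.139). For Nsdhl a second probe was called with IFN (0.86 ± 0.21, adjusted p = 0.0115 with every probe tested), and so was the dimmer Srebf2 probe (0.86 ± 0.20, 0.00786), while the probes that stood for these genes were not. At a second, dimmer Fdps probe the lines overlapped untreated (mean log2 intensity 10.07 in Rictor-/- and 9.26 in Rictor+/+ cells). With IFN the lines were separate at that probe, with Rictor-/- higher (9.83 against 9.01). Leaving out array 1 called Ebp lower in untreated Rictor-/- cells.

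**Figure D3:**
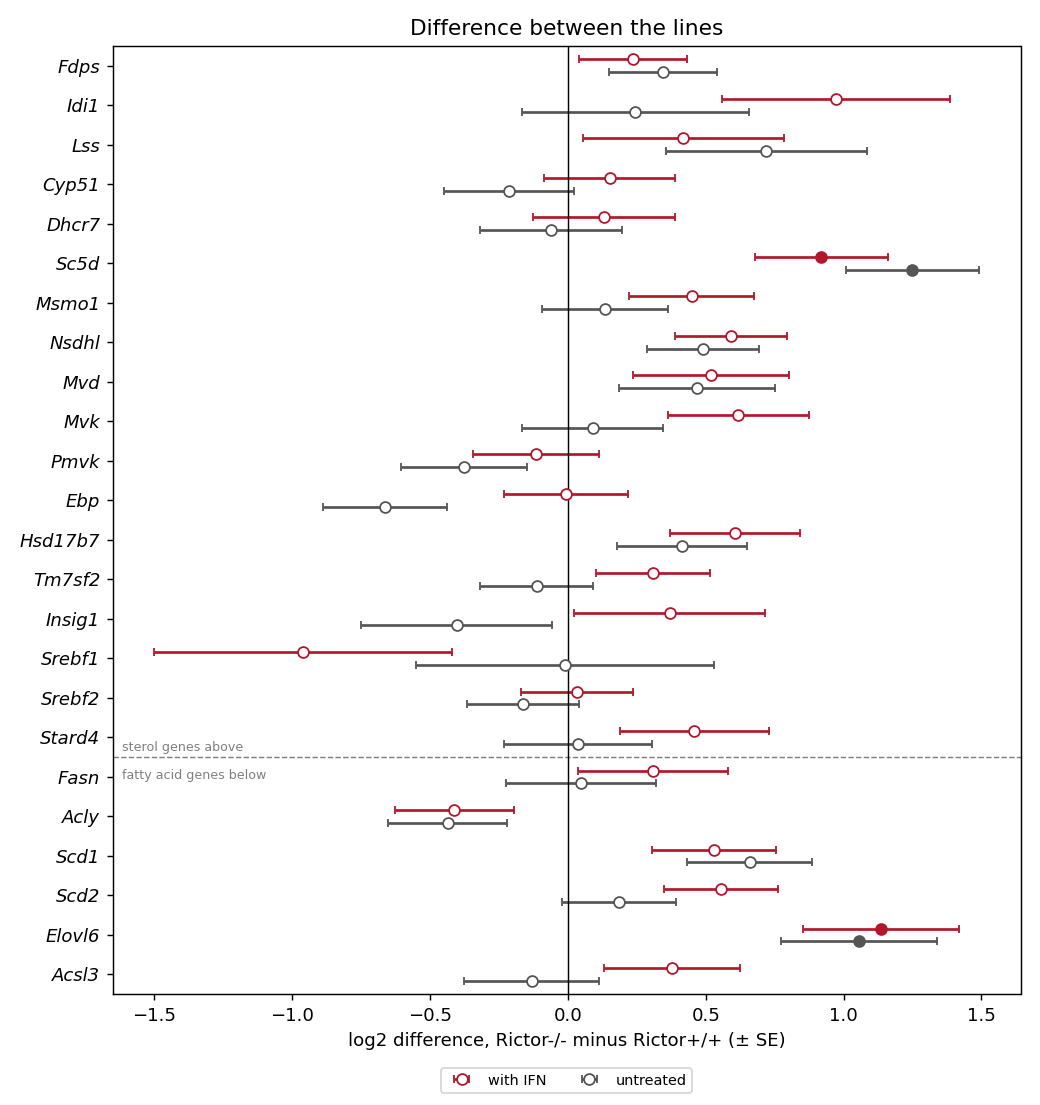
Log2 difference between Rictor-/- and Rictor+/+ cells for each of the 24 genes (points, bars ± SE from limma, 3 arrays per group), with IFN (red) and untreated (grey). Filled points passed an adjusted p under 0.05, and these are Sc5d and Elovl6 in both states.

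Markers of other cell types also differed between the lines. Of 10 adipocyte markers 4 had a probe, and their summed log2 level was 8.01 to 8.69 in IFN-treated Rictor-/-, 7.62 to 7.79 in untreated Rictor-/-, 12.19 to 12.43 in IFN-treated Rictor+/+ and 11.3 to 11.5 in untreated Rictor+/+ cells. In Rictor+/+ cells this sum is mostly Lpl, with means of 12.02 with IFN and 10.86 untreated, where Pparg had 9.74 and 9.54. Pparg, the transcription factor that defines the lineage, was detected on 0 of 6 Rictor-/- and 6 of 6 Rictor+/+ arrays, Lpl, a lipoprotein lipase, on 5 of 6 and 6 of 6, and Lep and Adipoq on none. Of 6 macrophage marker symbols, which include both the old and the current symbol of Adgre1, 2 had a probe. Their summed log2 level was 9.98 to 10.2, 9.6 to 9.93, 7.72 to 8.13 and 7.95 to 8.45 in the same order of groups. That sum is mostly Cd14 (means of 9.98, 9.70, 7.41 and 7.73), while Csf1r had means of 5.86, 5.91, 6.23 and 6.49 and cleared the background on 1 Rictor-/- and 4 Rictor+/+ arrays. The summed level of the 11 fibroblast markers was 16.04 to 16.42, 16.32 to 16.7, 16.43 to 16.9 and 16.75 to 17.23. Single fibroblast markers differed more: in untreated Rictor-/- cells, against untreated Rictor+/+ cells, the mean log2 level was 10.87 against 13.69 for Dcn, 10.13 against 13.08 for Col1a2, 10.54 against 13.02 for Col3a1 and 13.28 against 11.49 for S100a4. The part of these differences in the results for Sc5d and Elovl6 was not tested.

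On single arrays the genes moved partly together. The number of the 24 genes above their own mean over all arrays was 7, 16 and 8 on the IFN-treated Rictor-/- arrays, 20, 21 and 17 on the untreated Rictor-/- arrays, 2, 5 and 3 on the IFN-treated Rictor+/+ arrays and 9, 20 and 18 on the untreated Rictor+/+ arrays. Array 8 stood above the other IFN-treated Rictor-/- arrays, and array 1 below the other untreated Rictor+/+ arrays. After each group's mean was removed, the 153 pairs of sterol genes had a median Pearson correlation of 0.29 over the 12 arrays (106 pairs above 0), the 15 pairs of fatty acid genes 0.51 and the 108 mixed pairs 0.32, while all pairs of named genes had a median of 0. Pairs share the arrays and their total signal, so these values are descriptions. Cyp51, Lss and Fdps had the highest median correlation with the other sterol genes (0.62, 0.60 and 0.59) and Insig1 the lowest (-0.32).

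**Figure D4:**
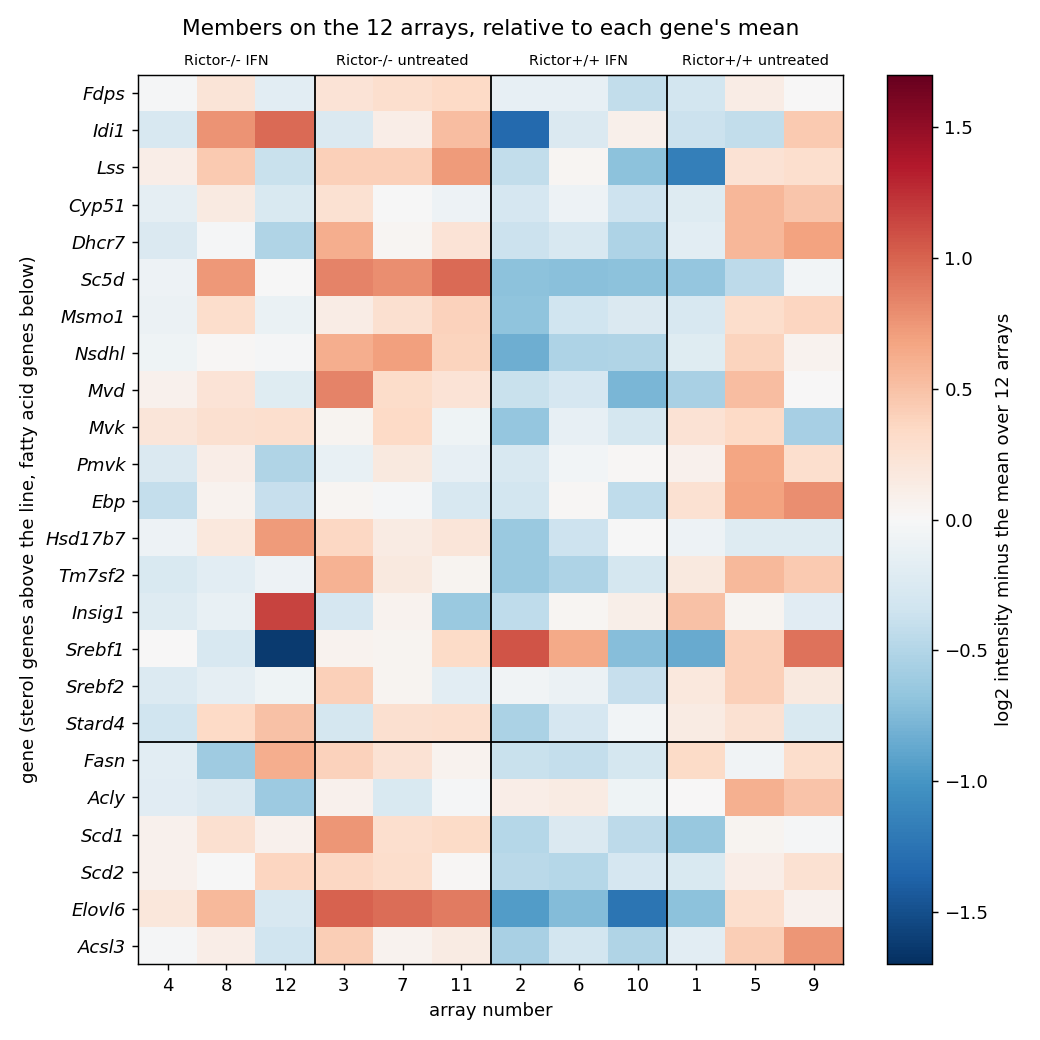
Log2 intensity of each of the 24 genes on each of the 12 arrays minus the gene's mean over all arrays (red above, blue below), with arrays in columns by group and sterol genes above the horizontal line. The IFN-treated Rictor+/+ columns are mostly blue, with 2, 5 and 3 of 24 genes above their mean, and the untreated Rictor-/- columns mostly red, with 20, 21 and 17.

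Other genes of the same pathways gave few calls with IFN. Among 11 tested of 21 further genes of sterol synthesis, uptake and SREBP processing, 1 rose and 0 fell with IFN in the Rictor+/+ line, none was called in the Rictor-/- line, and 1 rose and 1 fell in the average. Features called higher made up 2.13% in Rictor+/+ cells and 1.94% in the average. The riser was Npc2, a lysosomal cholesterol carrier, with a mean log2 intensity of 13.46 ± 0.15 in IFN-treated Rictor+/+ cells, against 12.30 ± 0.17 in untreated ones (SD, n = 3 each), a change of 1.16 ± 0.20 (limma adjusted p = 0.00461). Lpin1, a phosphatidate phosphatase that also restrains SREBP, fell in the average (-0.77 ± 0.18, adjusted p = 0.0399). Among 17 tested of 32 further genes of fatty acid and glycerolipid synthesis, and 6 tested of 16 genes of oxysterol and cholesterol efflux, 0 were called for IFN in either line or in the average.

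Between the lines more of them were called, as were 13.4% of all features untreated and 16.4% with IFN. Insig2, a relative of Insig1, was higher in Rictor-/- cells untreated (1.14 ± 0.21, limma adjusted p = 0.00294) and with IFN (0.68 ± 0.21, 0.0476). Lpin1 was higher with IFN (1.10 ± 0.25) and Npc2 lower (-0.86 ± 0.20). Tmem97, a sterol-regulated membrane protein, and Acss2, which makes acetyl-CoA from acetate, were lower in untreated Rictor-/- cells (-0.98 ± 0.21 and -1.33 ± 0.24). In the oxysterol list Ch25h, the enzyme that makes an oxysterol that blocks SREBP processing, had a mean log2 intensity of 6.50 ± 0.43 in untreated Rictor-/- cells, against 8.85 ± 1.21 in untreated Rictor+/+ cells (SD, n = 3 each), a difference of -2.35 ± 0.46 (adjusted p = 0.00405). With IFN it was below background on all 3 Rictor-/- arrays and averaged 10.20 ± 0.28 in Rictor+/+ cells, at least 14.6-fold lower in Rictor-/- cells (adjusted p = 2.42e-05). This bound sets the Rictor+/+ mean against the lowest signal above background on each Rictor-/- array, or the probe's own signal where that was higher. The lipid carrier Apoe was called lower untreated, with a fitted difference of -1.77 ± 0.38 that depends in part on the background, since it was above background on 1 of 3 Rictor-/- arrays. With IFN it was below background on all 3 Rictor-/- arrays and at least 1.74-fold lower, and Acacb, which makes malonyl-CoA, was at least 1.77-fold lower with IFN by the same measure. Cyp7b1, an oxysterol hydroxylase, and Nceh1, a cholesteryl ester hydrolase, were higher in untreated Rictor-/- cells (1.17 ± 0.35 and 0.96 ± 0.20). Over the 12 fits that left out 1 array, the calls of Cyp7b1 untreated, Insig2 with IFN and Lpin1 in the average over lines held in 3, 2 and 2. Under the 13 other alternatives they were lost in 6, 7 and 7, among them the background set as a block for Insig2 and Lpin1 (adjusted p = 0.0554 and 0.0509) and the run of 4 arrays as a block for Lpin1 (0.074). Of the 16 calls of these other pathway genes, 0 changed direction within a background set.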

How the data were processed

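Total RNA of 12 samples was hybridized to Illumina mouse BeadChips. For each of 45281 probes, the deposited non-normalized table holds an intensity, its mean bead signal on a linear scale; per the submitters' processing notes BeadStudio was used, with no version stated. A second deposited table gives log2 values of 17003 probes, normalized by a method not given in the sources used here, and served as an alternative. Gene names came from the platform annotation (14461 probes with 1 gene, 5 with several), updated through RefSeq gene IDs, which left 21 entries unmatched.

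In R 4.3.3 with limma 3.58.1, each array's background was the mode of its signals. Normexp correction (offset 16), quantile normalization and log2 followed. A probe was above background at an upper-tail p under 0.01, and 20856 probes above it on at least 3 arrays were kept. The brightest probe stood for each named gene, leaving 17259 features, 8273 of them named. One limma model with a mean per group used all 12 arrays (8 residual degrees of freedom, 4.70 prior). P-values were two-sided and Benjamini-Hochberg adjusted over all features, with calls under 0.05. The comparisons share groups. The number of arrays limits the precision. The calling script was tested on simulated data.

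The members and the gene lists were chosen with earlier results of these data known. All members are described; values on every array are given for those called and for Idi1, Insig1, Srebf1, Srebf2, Fasn, Scd1 and Scd2, and other genes of the lists are named where called. The hepatocyte, epithelial and endothelial marker lists had 1 probe each; those of hepatocytes and epithelium were above background on no array and that of endothelium, Kdr, on 3 of 12. Alternatives in background, normalization, filtering, probes, weights, blocks and left-out arrays are given in the closing section.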

Additional observations from a re-analysis of the deposited data

How the results depend on the processing

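No called gene changed direction under any of the alternatives. Within the arrays of low background the median difference between the untreated lines was -0.07 for sterol genes and -0.12 for fatty acid genes, against 0.06 and 0.12 on all arrays. In the following, counts are of genes called. A count within a background set carries little weight, because some groups then had only 1 array. The IFN comparison in Rictor-/- cells and the difference of responses gave 0 called in both lists under all 13 alternatives and all 12 fits that left out 1 array. In Rictor+/+ cells, where 1 sterol gene and 0 fatty acid genes were called with IFN, the sterol count was 0 with median scaling, cyclic loess, the background set as a block, runs of 4 array numbers as a block, or within either background set. It was 2 with the deposited log2 values, 3 with no background correction and 7 with array weights, which also called 3 fatty acid genes. For the average over lines (2 sterol, 0 fatty acid) the sterol count was 0 with median scaling and within either background set, 1 with cyclic loess or the run block, and 3 with array weights. The fatty acid count was 1 with the stricter filter, the deposited values, every probe tested, no background correction, an offset of 50 or the run block, and 3 with array weights. For untreated Rictor-/- against Rictor+/+ cells (1 and 1) the sterol count was 0 within either set, 2 with cyclic loess, the deposited values, no background correction or an offset of 50, and 4 with array weights. The added sterol genes were all lower in Rictor-/- cells: Ebp wherever the count rose, with Cyp51 and Pmvk under array weights. The fatty acid count was 0 with median scaling and within either set, and 2 with array weights, the deposited values or no background correction. The added fatty acid gene was Acly with array weights, as lower, and Scd1 with the deposited values or no background correction, as higher. With IFN (1 and 1) the sterol count was 0 with median scaling and within either set, 2 with the stricter filter, no background correction, an offset of 50 or the run block, 3 with the deposited values and 4 with array weights. The fatty acid count was 0 with median scaling and within either set, and 2 with array weights, the deposited values or no background correction.

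Leaving out 1 array gave 0 to 1 sterol and 0 to 2 fatty acid genes for IFN in Rictor+/+ cells, 0 to 3 and 0 to 2 for the average, 1 to 2 and 0 to 1 for the untreated lines, and 0 to 1 and 0 to 1 for the lines with IFN. Median scaling moved the median of all features to -0.27 for IFN in Rictor-/- cells, -0.15 for the average and -0.16 for the lines with IFN. Fits within a set had few arrays, so a missing call there is not read as a result about the gene. Among the 16 calls of other pathway genes, median scaling ended 9. The cause of these changes was not tested. The groups share no replicate number. Runs of 4 array numbers hold 1 array of each group and were fitted as a block, which ended both Tm7sf2 calls (adjusted p = 0.0762 and 0.0556) and none of the other 5 calls of members. Dim probes such as those of Srebf1 and Fasn lie near background, where changes are compressed.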
